A study of Drosophila melanogaster with 2 samples.

Results

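Regions enriched by precipitation of tagged espinas were examined at 5 genes of the core planar polarity pathway, fz, dsh, Vang, dgo and stan. They are 5 of 13945 protein-coding genes on the chromosome arms and were taken by symbol from the Ensembl annotation. A summit, the authors' position of highest signal within a region, was assigned to a gene when it lay in the gene body or within 2 kb upstream of it. The data came from chromatin immunoprecipitation and sequencing of whole Drosophila melanogaster at the white prepupa stage, with the sexes pooled. The flies stably expressed espinas (esn) with GFP fused to its C-terminus, the antibody was directed at GFP, and chromatin was sheared by sonication. There was 1 group, with 2 biological replicates, and no group without the tag. The control libraries were not analysed here, so recovery that does not depend on the tagged protein cannot be told apart from binding by it.

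Planar polarity is the shared alignment of epithelial cells along the tissue, seen in the fly as hairs and bristles that point the same way. In wing cells, the core proteins sort into complexes on opposite sides of each cell. Frizzled (fz), a seven-pass receptor, gathers at the distal side with Dishevelled (dsh), its cytoplasmic partner, and Diego (dgo), an ankyrin-repeat protein. Van Gogh (Vang), a transmembrane protein, gathers at the proximal side with Prickle (pk). Flamingo, or Starry night (stan), is a seven-pass cadherin present on both sides that joins neighbouring cells. Espinas is a LIM-domain relative of Prickle, and pk and esn lie next to each other on arm 2R. Vang, dgo and stan also lie on 2R, at 1.98, 3.69 and 3.55 Mb from esn, while fz is on 3L and dsh on X.

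4 lists of regions on the dm6 build were used. The IDR list, the authors' regions kept for reproducibility, held 10936 regions, of which 10918 lay on the arms. The pooled list and the list of each replicate held 30000 regions each, and these include background regions by design. The IDR list equalled the top 10936 of the pooled list by signal, so a summit has the same value in both. Signal is the authors' enrichment value, has no stated scale and was read only within a list. Its median was 328 in the IDR list, 112 in the pooled list, 72.2 in replicate 1 and 45.9 in replicate 2. No read counts accompany the regions, so library depth is unknown and no value carries a counting error. Nothing in the labels says how the replicates' animals were raised, so the spread between them may be partly technical. No statistical test was run, since there was a single group and genes and regions are not replicates.

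The sequences below show what lay under the strongest fz summits and at the starts of fz and dsh, all from the RefSeq Release 6 assembly, whose arms carry dm6 positions. Each is given on the plus strand, which is also the strand of both genes. Capitals mark matches, on either strand, to any of 9 short motifs: the DNA replication-related element TATCGATA, core promoter Motif 1 GGTCACAC, the GAGA factor sequence GAGAG, the repeat CACACA, the TATA sequence TATAAA, the GATA sequence AGATAA, the AP-1 sequence TGANTCA, the CAGGTA core of the Zelda sequence and the nuclear receptor sequence AGGTCA. The first 4 windows are 50 bases either side of the strongest fz summits of the IDR list, in order of signal. The next is the same window around the pooled summit at the fz start, and the last is the 101 bases upstream of the dsh start. None of the windows overlaps an annotated exon.
fz upstream, chr3L:14272548-14272648: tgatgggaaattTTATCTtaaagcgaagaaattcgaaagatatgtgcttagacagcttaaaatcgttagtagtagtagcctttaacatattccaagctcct
fz intron 4, chr3L:14364849-14364949: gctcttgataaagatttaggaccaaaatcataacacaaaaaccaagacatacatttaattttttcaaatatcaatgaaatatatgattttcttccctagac
fz intron 1, chr3L:14304018-14304118: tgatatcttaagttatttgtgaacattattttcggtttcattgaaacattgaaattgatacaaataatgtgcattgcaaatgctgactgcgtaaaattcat
fz intron 4, chr3L:14339026-14339126: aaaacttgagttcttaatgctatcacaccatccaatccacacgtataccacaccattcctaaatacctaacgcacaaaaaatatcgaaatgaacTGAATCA
fz start, chr3L:14274158-14274258: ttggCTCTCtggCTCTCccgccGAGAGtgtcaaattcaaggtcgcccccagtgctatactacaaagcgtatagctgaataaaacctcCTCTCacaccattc
dsh start, chrX:11355780-11355880: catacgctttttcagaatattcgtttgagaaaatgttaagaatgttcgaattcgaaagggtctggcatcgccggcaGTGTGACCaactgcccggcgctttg

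Summits were present at 4 of the 5 genes in the IDR list, and their number ranged from 0 at dsh to 20 at fz. Vang had 1, dgo had 2 and stan had 3. Over all protein-coding genes, 45.4% had at least 1 IDR summit by the same rule. Of the 26 summits, 21 lay in introns, 3 within 500 bases of a start of the gene and 2 further upstream. None lay in an exon of its gene outside a promoter. The dgo summits among them also lay close to starts of other genes. All 21 intronic summits belonged to fz and stan, the 2 long genes of the set. Intron 1 of fz alone held 5 of them and intron 4 of fz held 14. The same split over all IDR summits is not given here, so intronic placement is not read as a trait of these genes. A count of summits rises with gene length, so each gene is read beside genes of its length class below.

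**Figure D1:**
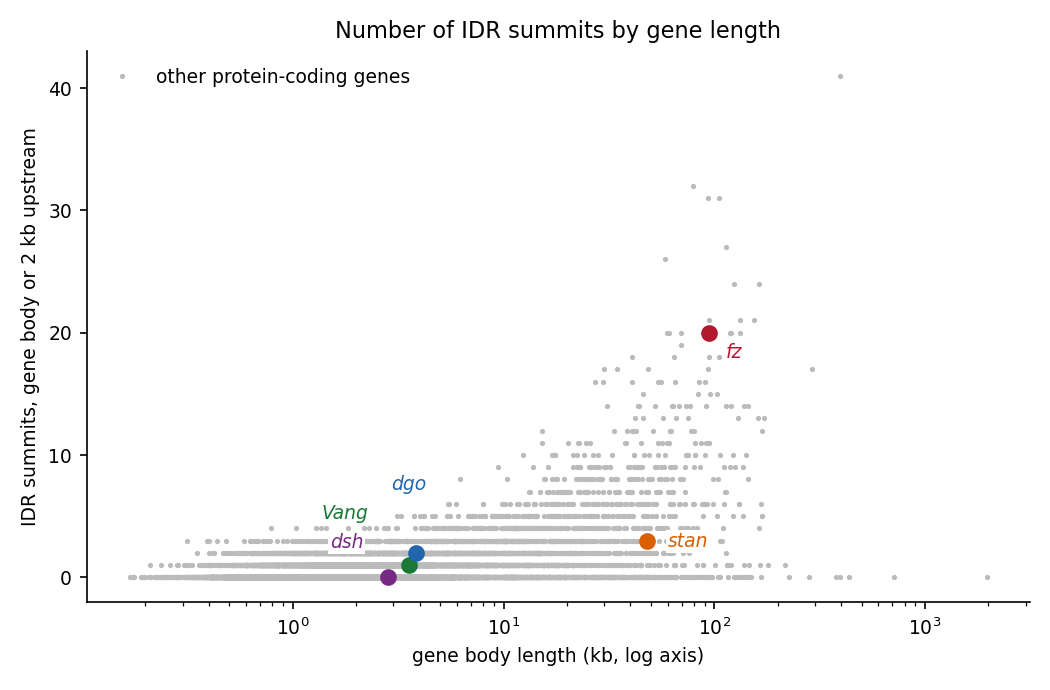
Number of IDR summits in the gene body or 2 kb upstream (vertical axis) against gene body length in kb (horizontal, log axis) for all 13945 protein-coding genes, 1 grey point a gene, with the 5 polarity genes in colour. fz stands at 20 summits among genes of similar length that mostly hold fewer, stan at 3, and dgo, Vang and dsh at 2, 1 and 0.

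Frizzled is the receptor of the pathway, and fz was the gene of the set with the most summits. The gene (FBgn0001085) spans 94.3 kb on the plus strand of 3L, 14274343 to 14368639, with 2 transcripts that share a start. It held 20 IDR summits, 19 in introns and 1 upstream. Of the 307 protein-coding genes of 50 kb or more, 18 (5.86%, fz included) had 20 or more summits, and the median of that class was 4. Per 10 kb of gene body and upstream sequence, fz had 2.08 summits, the class median was 0.470, and 6.51% of the class was as dense or denser. Over the whole arms there were 0.816 IDR summits per 10 kb.

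The signals at fz spread widely, between 164 and 1886 with a median of 280. 3 of the 20 were among the 1000 strongest of the 10936 regions of the IDR list, and 9 were above the list's median. The strongest summit, at 14272598, lay 1745 bases upstream of the start, with a signal of 1886 and rank 337. It was the strongest fz summit of replicate 2, where its signal was 1119 and its rank 96, while in replicate 1 it came after both intronic summits described next, with a signal of 774 and rank 847. The replicates therefore placed this region at different heights within their lists, although both put it among their 1000 strongest regions. Its region, 558 bases wide, held another, weaker summit in the pooled list at 14272821 with a signal of 58.4 and rank 24177. Replicate 1 placed a summit 40 bases from this one, with a signal of 156 and rank 7434. Replicate 2 placed one 32 bases from it, with a signal of 293 and rank 1789. Both replicates thus ranked this weaker summit higher within their lists than the pooled list did.

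The next in strength lay in introns. The summit at 14364899, in intron 4 and 90556 bases from the start, had a signal of 1847 and rank 359, with rank 410 in replicate 1 and rank 316 in replicate 2. The summit at 14304068, near the end of intron 1, had a signal of 1370 and rank 664, with rank 627 in replicate 1 and rank 772 in replicate 2. These 3 regions are the fz summits with a signal over 1000, and for both intronic ones the replicates gave similar ranks. Below them came 14339076 in intron 4 with a signal of 705 and rank 2063, 14297703 in intron 1 with a signal of 534 and rank 3033, and 14353330 in intron 4 with a signal of 467 and rank 3604. The other 14 had signals from 164 to 430.

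Within fz the summits were unevenly placed. The gene has 4 introns, of 29.2, 6.84, 5.06 and 49.4 kb. Intron 1 held 5 IDR summits and intron 4 held 14, or 1.71 and 2.83 per 10 kb. Introns 2 and 3 held none, in the pooled list and both replicate lists as well as in the IDR list. The IDR summits thus left a stretch of 15276 bases without a summit between those at 14304068 and 14319344. Most of intron 3 is taken up by an annotated transposable element of 4729 bases, from 14312098 to 14316826, over which no list placed a summit. Whether reads can be placed in this element was not tested. The longest stretch without an IDR summit, 21589 bases, ran from the upstream summit to 14294187 and covers the fz start and the larger part of intron 1.

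**Figure D2:**
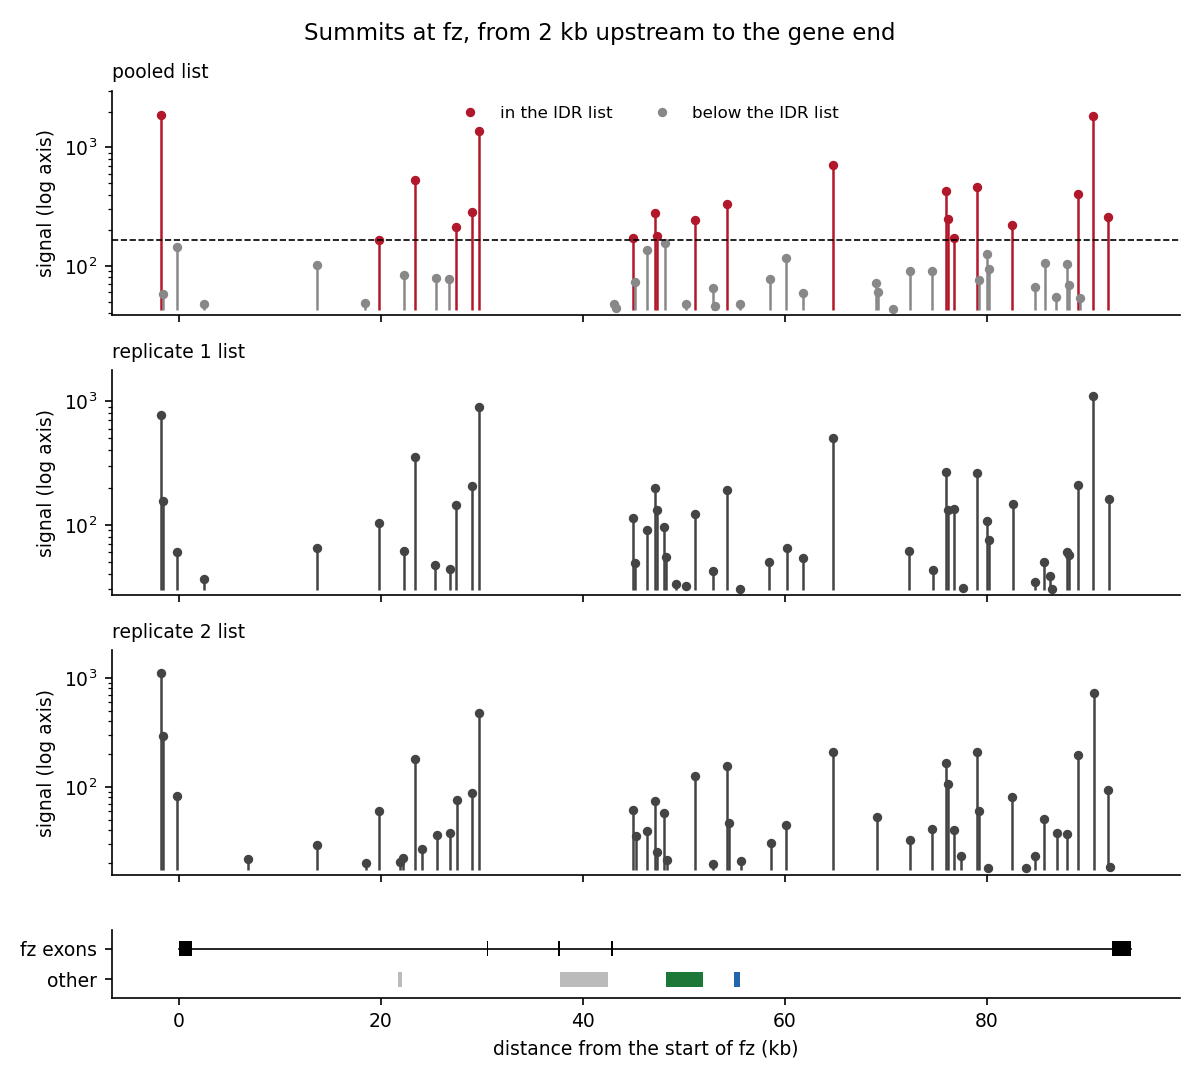
Signal of each summit (vertical, log axis, each list on its own scale) against distance from the fz start in kb, for the pooled list with IDR summits in red, replicate 1 and replicate 2. The dashed line is the lowest IDR signal, 164, and the bottom track shows the 5 exons of fz in black and other annotated features below, transposable elements in grey, a noncoding RNA in green and CG13482 in blue. The 3 strongest summits lie 1745 bases upstream, at the end of intron 1 and near the end of intron 4, and introns 2 and 3 are empty in each panel.

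Other genes lie inside fz, and reads there are not told apart by gene. The noncoding RNA CR45025 runs on the opposite strand within intron 4, from 14322552 to 14326251, and contained the summit at 14325459 with a signal of 246. The small protein-coding gene CG13482 sits in the same intron, and the nearest fz summit, at 14328636 with a signal of 334, lay 710 bases from its start. No fz summit of the IDR list lay within 500 bases of another gene's start.

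The fz summits recurred in the replicates. All 20 had a summit within 100 bases in both replicate lists, at a median distance of 15.0 bases in replicate 1 and 9.5 bases in replicate 2. The IDR list was derived from the same libraries, so this describes the list and is not a separate test. The share of all IDR regions that recur in this way is not given here, so the counts do not set fz apart. Across the 20 summits, which share their libraries and gene, Spearman's rho between the replicates' signals was 0.844. Among the strongest 10918 regions of each replicate, 16 of the 20 were found in both and 3 in replicate 1 alone, and 1 was in neither. That last summit, at 14294187, was also the weakest of the set by pooled signal, at 164.

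The 3 found in replicate 1 alone were weak in the pooled list as well. The summit at 14321712 ranked 8867 in replicate 1 and 23533 in replicate 2, that at 14351074 ranked 8632 and 16746, and that at 14319344 ranked 10162 and 11820. All 3 had pooled signals between 173 and 180, close to the lowest IDR signal of 164. Of the stronger intronic summits, 14339076 ranked 1722 in replicate 1 and 2861 in replicate 2, 14297703 ranked 2811 and 3519, and 14353330 ranked 4175 and 2853. The summit inside the noncoding RNA, at 14325459, stood higher in replicate 2, with rank 5491 there and 9392 in replicate 1.

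The longer lists, of 30000 regions each against 10936 in the IDR list, held more fz summits. The whole lists had 54 fz summits in the pooled list, 49 in replicate 1 and 51 in replicate 2, and 35 to 40 of these lay in intron 4. A few neighbouring summits belonged to overlapping regions, and the 20 IDR summits formed 18 separate runs. Closest together were those at 14321513 and 14321712, 199 bases apart. A group of 3 stood at 14350322, 14350531 and 14351074, with signals of 430, 250 and 173.

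**Figure D3:**
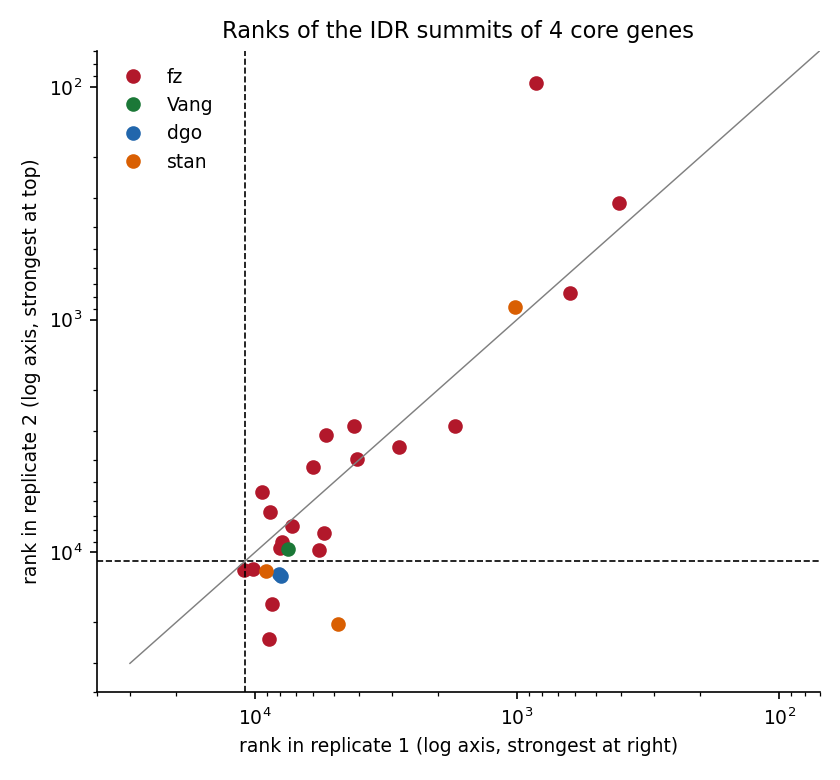
Rank of each IDR summit of the 4 genes that have any (26 points) in replicate 1 (horizontal) and replicate 2 (vertical), both on log axes with the strongest regions at the right and top. The dashed lines mark rank 10918 and the grey line equal ranks; the strongest fz and stan summits lie near the line in the upper right, except the upstream fz summit, at rank 847 in replicate 1 and 96 in replicate 2.

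At the fz start itself the IDR list had no summit, but the longer lists did. The pooled list placed one at 14274208, 135 bases upstream of the start, with a signal of 146 and rank 12155, below the last IDR rank of 10936. Its rank was 17436 in replicate 1 with a signal of 60.0, and 8903 in replicate 2 with a signal of 81.6. The region thus lay inside the strongest 10918 regions of replicate 2 and outside those of replicate 1. The printed sequence of this window holds 4 matches to GAGAG, the sequence recognised by GAGA factor. At least 1 match stood in 11.8% and at least 4 in 0.837% of pooled windows of the same length, and 18.5% of coding genes had a match in the 101 bases upstream of a start.

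Dishevelled relays the receptor's signal inside the cell, in the polarity pathway and in Wingless signalling. The gene dsh (FBgn0000499, X, 11355881 to 11358724, plus strand) is 2.84 kb long, has a single annotated transcript and had no IDR summit. Of 3944 genes of 2 to 5 kb, 49.4% had none. The pooled list held 1 summit at dsh, at 11355837 and 44 bases upstream of the start, with a signal of 142 and rank 12408. In replicate 1 the strongest dsh summit had a signal of 85.7 and rank 12970, and in replicate 2 it had a signal of 52.7 and rank 13403. Both replicates placed it at 75 to 113 bases upstream of the start, above the median signal of their lists and outside their strongest 10918 regions.

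The 101 bases upstream of the dsh start hold a match to Motif 1 on the opposite strand, capitalised in the printed sequence. Such a match stood in the same window of 3.57% of coding genes. The IDR summits nearest to dsh belonged to its surroundings. One lay 4333 bases upstream of the gene with a signal of 1123 and rank 983, inside CG1737 and over 500 bases from any coding start, and the other lay 439 bases beyond its end, at the promoter of Pa1, with a signal of 179 and rank 10170.

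Van Gogh recruits Prickle to the proximal membrane. Vang (FBgn0015838, 2R, 9103238 to 9106796, plus strand) had 1 IDR summit, at 9103216 and 22 bases upstream of its start, with a signal of 233 and rank 7863. Its rank was 7502 in replicate 1, where its signal was 154, and 9647 in replicate 2, where its signal was 75.3. It was thus within the strongest 10918 regions of both. Of the 3944 genes of 2 to 5 kb, 50.6% had 1 or more IDR summits by the same rule. CG8777, on the same strand, ends 84 bases before Vang begins, and no other coding start lay within 500 bases of the summit. The 101 bases around this summit held a Motif 1 match, as did 1.38% of all IDR windows, which include windows away from promoters. In the 101 bases upstream of a start, 3.57% of coding genes held a match, though Vang did not. Further regions appeared in the pooled list, at 9103442 with a signal of 54.4 and at 9105917 with a signal of 71.1. Their matches in replicate 1 ranked 18795 and 28499, and neither had a match within 100 bases in replicate 2.

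Diego acts with Frizzled and Dishevelled. The gene dgo (FBgn0086898, 2R, 10816037 to 10819884, minus strand) had 2 IDR summits, neither of which lay in its body. The stronger, at 10819988, had a signal of 223 and rank 8202 and lay 104 bases upstream of dgo. It was only 10 bases from the start of Prosbeta5, a proteasome subunit gene that is transcribed in the other direction, and lay within it. The weaker, at 10821679, had a signal of 199 and rank 9144, and its distance from the dgo start was 1795 bases. It lay 3 bases from the start of RpS15Ab, a ribosomal protein gene, and within 500 bases of that of Lsm10, so neither summit can be assigned to dgo alone. In replicate 1 they ranked 7978 and 8083 with signals of 145 and 143, and in replicate 2 they ranked 12696 and 12423 with signals of 56.2 and 57.5. Both were therefore outside the strongest 10918 regions of replicate 2. Among the 3944 genes of 2 to 5 kb, 17.8% had 2 or more IDR summits by the same rule.

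Flamingo is the cadherin that links the complexes of neighbouring cells. The gene stan (FBgn0024836, 2R, 10673345 to 10721138, plus strand) is 47.8 kb long with 7 transcripts and 2 starts, and held 3 IDR summits, or 0.602 per 10 kb. Among the 706 genes of 20 to 50 kb the median was 2 summits and 0.664 per 10 kb. The strongest stan summit, at 10675474 in intron 1 and 2129 bases from the start, had a signal of 1138 and rank 953. It ranked 1022 in replicate 1 with a signal of 695, and 882 in replicate 2 with a signal of 446. This was the sole stan summit above the IDR median.

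The other stan summits were weaker. The summit at 10681526, also in intron 1, had a signal of 323 and rank 5562. Replicate 1 had a summit 17 bases away with a signal of 234 and rank 4811. Replicate 2 split this place into a summit 92 bases away with a signal of 30.8 and rank 20276 and another at 10681418 with a signal of 99.8 and rank 7204. The summit at the stan start, at 10673319 and 26 bases upstream, had a signal of 190 and rank 9564, with rank 9069 in replicate 1 and rank 12079 in replicate 2. No list placed a summit within 500 bases of the second start, at 10705906. The pooled list held 10 stan summits in all, the last of them at 10694028. All 11044 coding bases of stan lay beyond it, and so held no summit of that list.

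**Figure D4:**
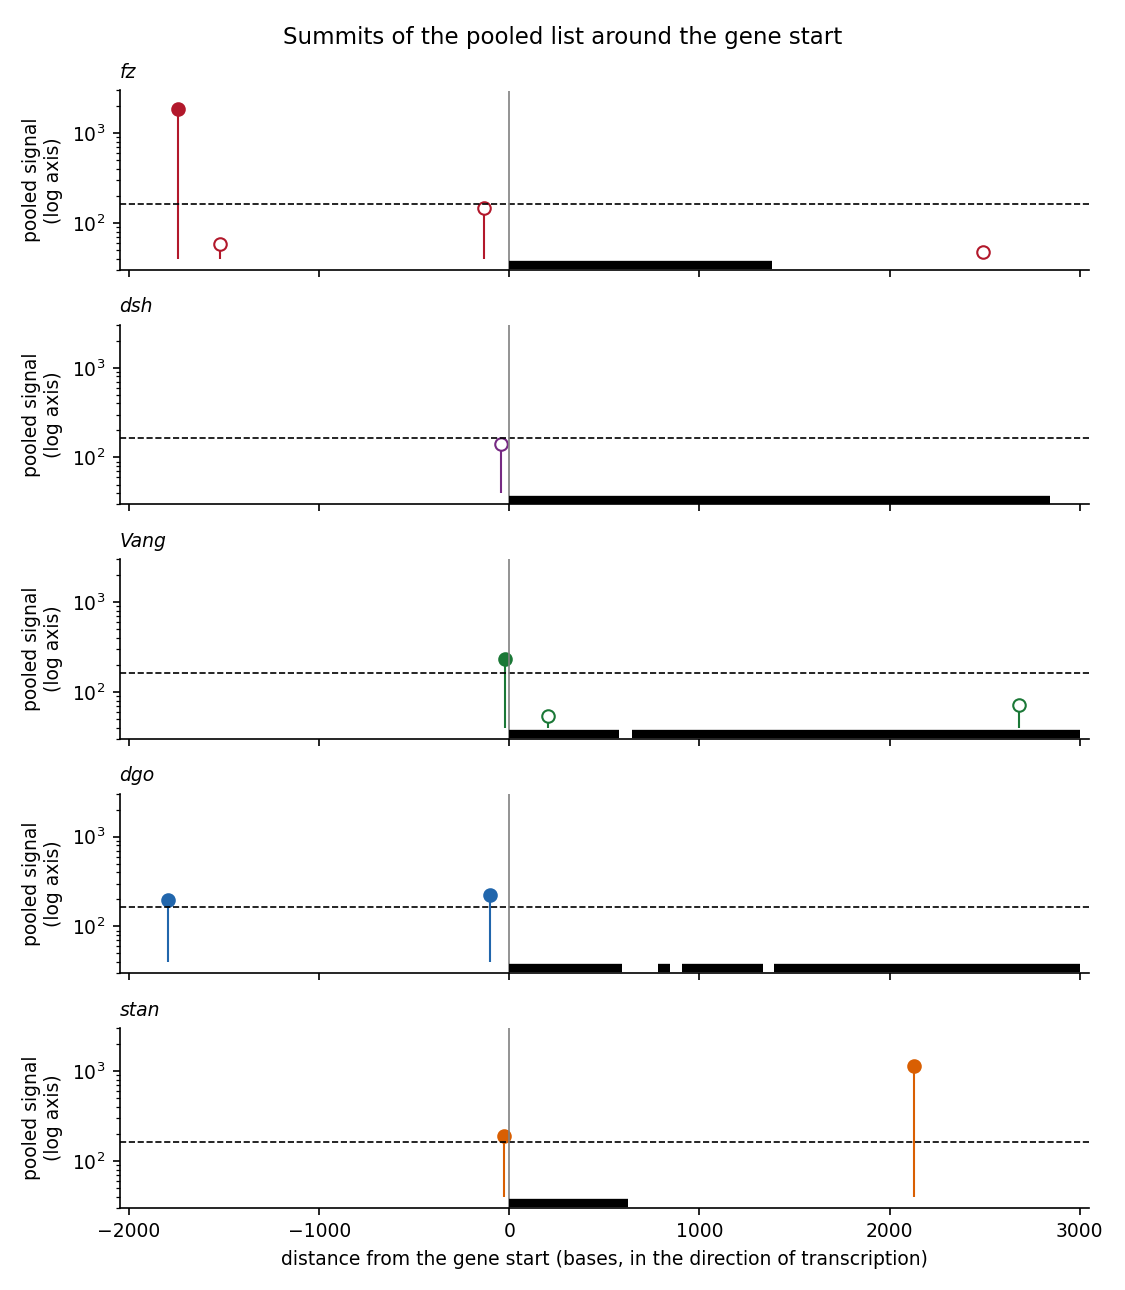
Signal in the pooled list (vertical, log axis) of each summit from 2000 bases upstream to 3000 bases downstream of the start of each gene, in the direction of transcription; filled points are in the IDR list, open points are below it, the dashed line is the lowest IDR signal, 164, and black bars are exons. Each gene has a summit within 135 bases upstream of its start, filled at Vang, dgo and stan and open at fz and dsh.

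The starts of the 5 genes were compared within a fixed distance, which leaves room for few summits, so these counts cannot vary as the totals do. A promoter summit, within 500 bases of a coding start, was present in the IDR list at 3 of the 5, Vang, dgo and stan. That at dgo is shared with Prosbeta5. The share was 35.4% over all protein-coding genes. It was 41.9% for genes of 2 to 5 kb, 49.6% for 20 to 50 kb and 45.0% for 50 kb or more. In the strongest 10918 regions of replicate 1 a promoter summit was present at the same 3, against 35.1% of all genes. In those of replicate 2 it was present at Vang and fz, against 34.9% of all genes. In the whole pooled list all 5 had a promoter summit, against 52.0% of all genes, and likewise in the whole lists of replicate 1 (52.5%) and replicate 2 (52.0%). The pooled promoter signals were 233 for Vang, 223 for dgo, 190 for stan, 146 for fz and 142 for dsh. All 5 were below the IDR median of 328 and above the pooled median of 112. This order was not kept in either replicate. In replicate 1 the promoter signals were 154 for Vang, 145 for dgo, 128 for stan, 85.7 for dsh and 60.0 for fz, which was the lowest of the 5 and below that list's median of 72.2. In replicate 2 fz had the highest promoter signal, 81.6, followed by Vang with 75.3, stan with 59.3, dgo with 56.2 and dsh with 52.7.

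Sequence at the fz summits was AT-rich, as it was at the IDR summits as a whole. The median G+C content of the 101-base windows was 31.2% for the 20 fz summits, with a range of 20.8% to 53.5%, and 32.7% for all 10918 IDR windows. TATAAA was the motif found most often, in 5 of the 20 fz windows (25.0%) and 21.3% of all windows. The GATA sequence was found in 2 fz windows, including that of the strongest summit, and in 7.49% of all windows. A single fz window each held the GAGA, repeat, AP-1 and nuclear receptor sequences, which stood in 10.2%, 6.60%, 2.36% and 1.88% of all windows. No fz window held TATCGATA, Motif 1 or the CAGGTA sequence, which stood in 2.11%, 1.38% and 1.68% of all windows. The absence of these letters says nothing of the factors.

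The other genes of the pathway were read by the same rule. Of 13 listed polarity genes other than esn, 10 had an IDR summit, against 45.4% of all protein-coding genes, and 8 a promoter summit, against 35.4%. The 13 genes are 1.8 to 75.1 kb long, and these shares differ with length. They were 31.2% and 24.3% for genes under 2 kb, and 68.4% and 45.0% for genes of 50 kb or more. Summit counts of the 13 genes ran from 0 to 13 with a median of 2, the same median as for the 5 core genes described here. The most summits were at ds, which encodes the giant cadherin Dachsous, with 13 and a highest signal of 2972 at rank 100. It was followed by nmo, a protein kinase gene, with 10 and a highest signal of 589, and pk with 9 and a highest signal of 419. No IDR summit was found at fj, a Golgi kinase gene, or at in and frtz, genes of the machinery that places wing hairs. The tagged gene esn had 10, but there added copies of the transgene cannot be told apart from binding.

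Among the other Frizzled receptors, fz2, which acts in Wingless signalling, was close to fz in both length and count. It is 94.4 kb long and had 18 IDR summits, with a highest signal of 1351 at rank 681, against 20 and 1886 for fz. In contrast to fz it had an IDR promoter summit. The shorter genes fz3 (14.3 kb) and fz4 (4.05 kb) had 5 and 1 summits, with highest signals of 772 and 230.

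**Figure D5:**
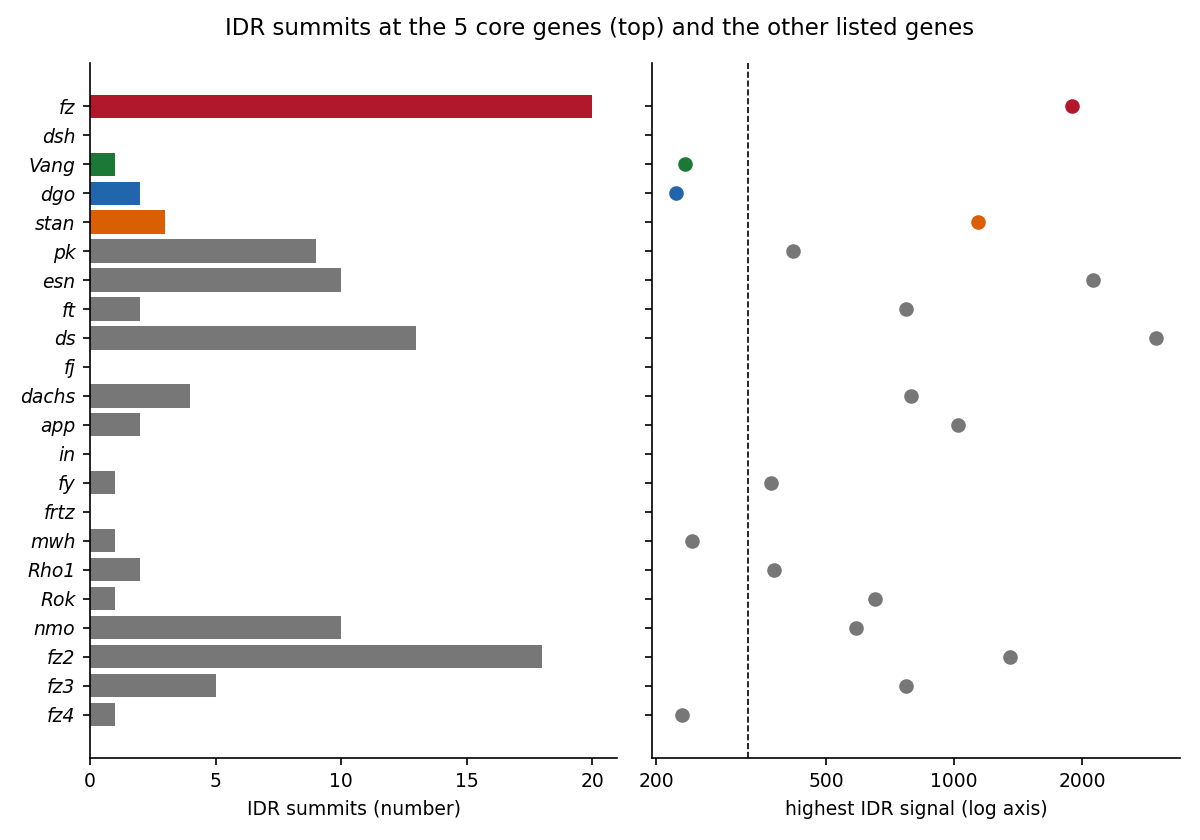
Number of IDR summits (left, bars from 0) and highest IDR signal (right, log axis) for the 5 core genes, in colour at the top, and for the 17 other listed polarity and Frizzled genes, in grey; the dashed line is the IDR median of 328 and a gene with no summit has no point. fz has 20 summits, fz2 18 and ds 13, and the highest signals are at ds, esn and fz.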

How the data were processed

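ChIP-seq regions from 2 biological replicates of 1 group were read from deposited narrowPeak lists on dm6. Per the deposited file descriptions, the authors called 1 list from each replicate and 1 from the pooled replicates against a control, and derived the IDR list from these. No source used here names the caller, its settings or the IDR threshold. The deposited signal values are the authors' and were not rescaled. The summit is the region start plus the deposited offset, written 1-based. Lists on dm3 were not used, and no coordinates were converted.

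Genes came from Ensembl release 115 (BDGP 6.54), which uses dm6 coordinates, and sequence from RefSeq Release 6. Promoters are within 500 bases of a protein-coding transcript start. Length classes were cut at 2, 5, 10, 20 and 50 kb. The summit nearest to an IDR summit, within 100 bases, was its match in a replicate. Counting was tested on simulated lists. Calculations used Python 3.11.15, numpy 2.4.6, pandas 2.3.3 and scipy 1.17.1. Depth is unknown, so precision cannot be given.

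The 5 genes and the lists of genes and motifs were chosen with earlier results of these data known. The other genes named are the fixed list, the neighbours, the genes that hold or adjoin a named summit, and the genes of the most similar pattern. The GAGA and Motif 1 counts at the starts of fz, dsh and Vang were added after the sequences had been seen. Alternatives replaced the list of regions, the span, the promoter distance, the matching distance and the window.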

Additional observations from a re-analysis of the deposited data

How the results depend on the processing

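With the strongest 10918 regions of a single replicate in place of the IDR list, the summits numbered 18 to 21 at fz, 0 to 2 at dgo and 3 to 4 at stan, and stayed at 0 at dsh and 1 at Vang. The dgo count of 0 was that of replicate 2 alone. The genes with any summit then numbered 4 in replicate 1 and 3 in replicate 2, against 45.5% and 44.8% of all protein-coding genes. Those with a promoter summit numbered 3 and 2, against 35.1% and 34.9%. In the strongest 5459 regions of the IDR list, fz had 9 summits, stan 1 and Vang and dgo 0 each, which left 2 genes with a summit and 0 with a promoter summit, against 29.3% and 20.2% of all protein-coding genes. The whole pooled list gave 54 at fz, 10 at stan, 3 at Vang and 1 at dsh, and 5 genes with a promoter summit. In the gene body alone Vang and dgo had 0, which left 2 genes with a summit, against 19.7% of all genes. With 5 kb upstream, dsh had 1 and Vang had 2, which gave 5 genes with a summit, against 54.8% of all genes. One summit per run of overlapping regions, any overlap of a region, and promoter distances of 250 and 1000 bases left each count within 1.5 times its value. Of the 20 fz summits, 16 had a match within 50 bases in both replicates. In windows of 100 bases either side of the fz summits, matches stood in 8 of the 20 for TATAAA (35.6% of all IDR windows of that length), 4 each for GAGAG (22.2%) and AGATAA (13.9%), 2 each for CACACA (14.6%) and TGANTCA (4.88%), and 1 for CAGGTA (3.85%). No paired analysis was possible because there was a single group. Depth is unknown and limits all counts, since a deeper library can place more regions above a threshold.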

Other observations

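The protein-coding genes whose pattern was most like that of each core gene were sought over 8138 genes with a summit in both replicates, by the Euclidean distance over 4 values, the log2 rank of the strongest summit and the log2 of 1 plus the number of summits in each replicate. For fz these were tara and RapGAP1, at distances of 0.868 and 0.974. The strongest summit was taken in each replicate separately, and at fz it was not the same summit in both. The best fz rank was 410 in replicate 1, in intron 4, and 96 in replicate 2, upstream of the start. The replicates held 49 and 51 fz summits. For tara the best ranks were 618 and 135, with 39 and 43 summits. For stan they were pio and wdp, at 0.218 and 0.267. For dsh they were per and CG5676, at 0.0320 and 0.0444, for Vang the pair CG7997 and Nup62, at 0.0554 each, and for dgo santa-maria and Ih, at 0.0394 and 0.0619. With 2 samples this likeness is weak.

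The nearest IDR summit beyond stan lay 10054 bases past its end, at the promoter of Daao1 and CG7220, with a signal of 1637 and rank 469, above the highest signal of 1138 at stan itself. On the other side the nearest was 69140 bases upstream of stan, with a signal of 182 and rank 9971, below that of stan. Beyond fz the nearest lay 20704 bases upstream with a signal of 699 and 6058 bases past its end with a signal of 615, both below the highest signal of 1886 at fz.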
